A study of Mus musculus with 2 samples.

Results

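Sap130 occupancy in the embryonic mouse heart was examined at the peaks for which the deposited table names no gene although they stand early in its order. The members are the 263 nuclear peaks whose annotation is blank and whose position in the table is 1 to 8348 of 16697. Every named peak lies within 10 kb of the start site named for it, so a blank annotation leaves a peak with no named start inside that distance. In all, 1520 nuclear peaks carry no gene name, and the other 1257 stand beyond position 8348. The study holds 1 chromatin immunoprecipitation (ChIP-seq) library, made with a Sap130 antibody from wild-type B6 heart at E13.5, and 1 input library of unprecipitated chromatin from wild-type B6 heart, whose age label reads E13.6. The design names the targets of Sap130 in this heart as its question. The labels do not say whether hearts were pooled, and whole heart mixes muscle, endothelial, endocardial and other cells. There are no replicates and the table holds no peak height, fold enrichment, p-value or read count, so the depth is unknown and no sample-level error exists. Intervals in brackets are 95% exact Clopper-Pearson intervals that cover counting error over peaks of a single list, and peaks are not replicates.

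Sap130 is a subunit of the Sin3 complex, which carries histone deacetylases to chromatin and is best known as a corepressor. Deacetylases remove acetyl groups from histone tails, and Sin3 complexes are found at many active and CG-rich gene starts as well as at repressed genes. Loss of Sap130 has been linked to heart malformation in mice. A promoter is the stretch around a transcription start, and a CpG island is a stretch rich in CG dinucleotides that covers many mammalian promoters.

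The members were chosen by their position in the order and by the absence of a gene name, so both are given as description only. No source used here states what the order was sorted on. The members made up 3.15% (2.79 to 3.55) of positions 1 to 8348, and gene-distant peaks made up 15.1% (14.3 to 15.9) of the nuclear peaks beyond. The first member stood at position 5, and positions 1 to 1000 held 17 members, against 60 in the 1000 positions up to 8000. At the edge of the order, the last members inside stood at positions 8314 near Cdk5r2, 8316 near Fos and 8338 near Psap, and were 486, 992 and 378 bp wide. The first gene-distant peaks outside stood at 8352 near Id4, 8381 near Celf2 and 8383 near 1810026B05Rik, and were 309, 1354 and 1114 bp wide. At the edge of distance, the closest members to a named start were those of Fosb at 10076 bp, Srebf1 at 10105.5 bp and Plekhg5 at 10148.5 bp. The farthest named peaks within positions 1 to 8348 were those of Phf3 at 9992 bp, Cln6 at 9963.5 bp and Fam83a at 9948.5 bp.

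The name gene-distant held for the starts that the table names and not for RefSeq starts as a whole. RefSeq promoter windows of GRCm38.p6, the assembly of the mm10 build that the peaks use, were available for 259 members. The other 4 lie on a chromosome for which no window was used. Of the 259, 101 were centred within 1 kb of a RefSeq start, 39.0% (33.0 to 45.2), and 85 of these 101 contained that start base, 84.2% (75.6 to 90.7). Among the 1200 later gene-distant peaks with windows, 217 were centred as close to a start, 18.1% (15.9 to 20.4), and 46.5% (39.8 to 53.4) of those contained it. Whether a peak contains its start depends in part on its width. The median width was 985 bp for the 101 members and 375 bp for the 217 later peaks. Their midpoints lay a median of 173 and 128 bp downstream of the start. The starts at members numbered 97 and belonged to 95 genes, of which many are protein-coding genes that the table names nowhere.

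The starts of the earliest such members are shown so that the promoters beside these peaks can be read. Each line gives the 200 bases upstream of the RefSeq start, ending at the base before it, on the transcribed strand, with every CG in capitals. The member covers the start base and a varying share of the printed stretch. The first 6 are the earliest members that contain a protein-coding start. Pitpnm2, a phosphatidylinositol transfer protein gene, had member 312 over its start (chr5:124249761-124249960, minus strand). Sipa1l2, of a family of Rap GTPase-activating proteins, had member 472 (chr8:125569864-125570063, minus strand). Rab7, a small GTPase of late endosomes, had member 647 (chr6:88045018-88045217, minus strand). Klhl2, a Kelch-like substrate adaptor of cullin ubiquitin ligases, had member 814 (chr8:64849925-64850124, minus strand). Strbp, an RNA-binding protein gene, had member 832 (chr2:37703346-37703545, minus strand), and Tdrd7, a Tudor-domain protein of RNA granules, had member 1010 (chr4:45972097-45972296, plus strand).
Pitpnm2: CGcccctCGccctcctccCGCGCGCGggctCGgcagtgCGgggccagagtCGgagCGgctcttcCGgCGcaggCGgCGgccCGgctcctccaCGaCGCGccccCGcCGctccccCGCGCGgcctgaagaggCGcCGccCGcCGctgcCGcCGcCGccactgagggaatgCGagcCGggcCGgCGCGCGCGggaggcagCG
Sipa1l2: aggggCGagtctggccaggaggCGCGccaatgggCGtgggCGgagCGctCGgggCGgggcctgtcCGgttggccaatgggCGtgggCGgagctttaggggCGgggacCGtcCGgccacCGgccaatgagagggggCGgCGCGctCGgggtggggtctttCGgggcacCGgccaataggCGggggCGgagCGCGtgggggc
Rab7: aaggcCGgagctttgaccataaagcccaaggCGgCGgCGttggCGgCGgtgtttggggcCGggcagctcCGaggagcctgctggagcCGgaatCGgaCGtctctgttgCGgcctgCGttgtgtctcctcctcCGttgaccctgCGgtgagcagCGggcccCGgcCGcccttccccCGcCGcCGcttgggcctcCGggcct
Klhl2: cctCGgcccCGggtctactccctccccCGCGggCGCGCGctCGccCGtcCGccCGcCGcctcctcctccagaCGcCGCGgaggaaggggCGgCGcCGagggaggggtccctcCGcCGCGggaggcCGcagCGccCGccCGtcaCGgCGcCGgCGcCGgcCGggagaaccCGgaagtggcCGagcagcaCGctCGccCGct
Strbp: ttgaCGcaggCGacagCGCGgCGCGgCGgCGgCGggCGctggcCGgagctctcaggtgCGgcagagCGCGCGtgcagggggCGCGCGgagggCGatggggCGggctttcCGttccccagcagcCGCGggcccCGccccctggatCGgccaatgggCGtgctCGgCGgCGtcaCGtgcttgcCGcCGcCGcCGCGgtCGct
Tdrd7: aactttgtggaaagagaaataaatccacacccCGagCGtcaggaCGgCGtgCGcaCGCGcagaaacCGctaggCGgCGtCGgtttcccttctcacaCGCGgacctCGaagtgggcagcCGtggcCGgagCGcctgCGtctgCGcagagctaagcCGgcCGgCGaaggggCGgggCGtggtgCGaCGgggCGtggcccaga

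The next set shows the earliest starts of long non-coding RNA genes under members and, among the 85 starts that a member contains, those with the fewest CGs in the window. Gm12843 had member 796 (chr4:117289160-117289359, plus strand) and Gm34102 had member 1344 (chr1:183345340-183345539, plus strand). Gm4258 had member 7874 (chr1:137898322-137898521, plus strand) and Gm15704 had member 2225 (chr6:145748369-145748568, minus strand).
Gm12843: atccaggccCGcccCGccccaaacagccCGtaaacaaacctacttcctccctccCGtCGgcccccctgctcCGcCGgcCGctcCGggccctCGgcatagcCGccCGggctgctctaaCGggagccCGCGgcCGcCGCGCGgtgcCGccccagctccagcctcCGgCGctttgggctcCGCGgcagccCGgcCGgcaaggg
Gm34102: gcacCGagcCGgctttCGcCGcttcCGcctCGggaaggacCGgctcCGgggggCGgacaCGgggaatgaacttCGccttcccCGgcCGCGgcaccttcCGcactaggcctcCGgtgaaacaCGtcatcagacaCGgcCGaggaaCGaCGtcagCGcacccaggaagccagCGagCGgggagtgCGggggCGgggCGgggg
Gm4258: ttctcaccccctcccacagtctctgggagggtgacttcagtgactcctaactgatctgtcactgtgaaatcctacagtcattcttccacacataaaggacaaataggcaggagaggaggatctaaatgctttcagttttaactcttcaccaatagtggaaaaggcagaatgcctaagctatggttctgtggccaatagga
Gm15704: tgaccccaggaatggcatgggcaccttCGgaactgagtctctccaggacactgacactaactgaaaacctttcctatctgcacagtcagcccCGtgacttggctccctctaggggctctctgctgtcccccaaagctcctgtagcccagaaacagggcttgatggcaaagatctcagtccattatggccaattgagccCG

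The printed stretches of the 6 protein-coding starts held between 22 and 38 CGs, those of Gm12843 and Gm34102 held 26 and 27, and those of Gm4258 and Gm15704 held 0 and 3. In the whole 300-base window, 250 bases before the start and 50 after, Pitpnm2 had 53 CGs, Klhl2 had 54, Strbp 52, Sipa1l2 47, Rab7 38 and Tdrd7 32. The windows of Gm4258 and Gm15704 had 3 and 4 CGs, and the lowest count at any start within 1 kb of a member was 2, at Gm31585 and Gm40720, whose starts the member does not contain.

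Across the 97 starts at members the median window held 26 CGs, with quartiles of 17 and 37, and 66.3% G or C. At the 6214 windows within 1 kb of promoter peaks at positions 1 to 8348, called early promoter peaks from here on, the median was 25 CGs and 64.3% G or C. Over all 32851 RefSeq windows the median was 7 CGs and 52.7% G or C, and at the 191 starts of later gene-distant peaks it was 16 CGs and 60.0% G or C. Windows with 10 or more CGs were 87.6% of those at members, 97.3% of those at early promoter peaks, 70.7% of those at later gene-distant peaks and 43.5% of all. The 72 protein-coding starts at members had a median of 27 CGs, and 93.1% had 10 or more, against 56.8% of all protein-coding starts. The 25 long non-coding starts at members had a median of 21 CGs, against 4 over all long non-coding starts, and 18 of the 25 had 10 or more, against 19.1% of all. Each member was given the class of its nearest start only. Some of these members also lay within 1 kb of an end of a protein-coding gene. Examples are those at 6430573P05Rik (Rapgef2, 216.5 bp), Gm26839 (Foxn3, 533.5 bp) and Gm8098 (Sptbn1, 931 bp).

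**Figure D1:**
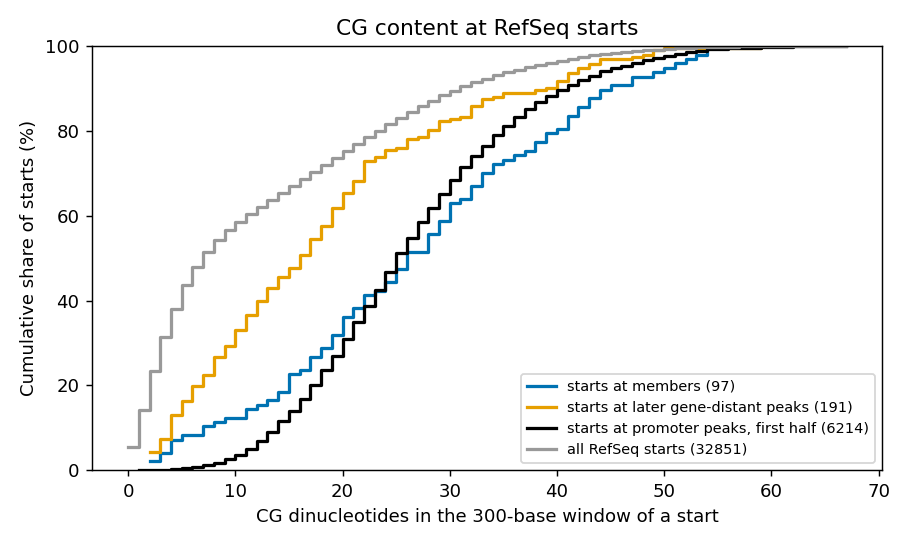
Cumulative share of starts (%) against the number of CG dinucleotides in the 300-base window, for starts within 1 kb of a member, of a later gene-distant peak and of an early promoter peak, and for all RefSeq starts. The lines for members and early promoter peaks meet near their medians (26 and 25 CGs). The line for members begins higher at low counts and lies to the right at high counts, with quartiles of 17 and 37 against 19 and 33 CGs. Both lie far to the right of the line for all starts, whose median is 7.

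Short promoter motifs were counted on both strands of the same windows. The GC box, GGGCGG, stood in 71.1% of windows at members, in 74.5% at early promoter peaks and in 35.7% of all. The ETS core, CCGGAA, stood in 21.6% at members, 33.6% at early promoter peaks and 14.9% of all. The E box, CACGTG, stood in 11.3%, 12.3% and 7.15% in the same order, and CCAAT in 38.1%, 36.8% and 37.4%. The TATA box, TATAAA, stood in 4.12% and 4.86% at members and early promoter peaks and in 4473 of all 32851 windows, and the CRE, TGACGTCA, in 1.03%, 3.94% and 1.79%. All but CCAAT and the TATA box contain a CG, so their shares are not independent of the CG content, and none of these letter strings contains another. The CRE stood in only 1 of the 97 windows at members, too few to compare its share. The ETS core, in 21 of the 97, was rarer at members than at early promoter peaks, with median CG counts of 26 and 25. The cause was not tested. Among the printed genes, the windows of Sipa1l2, Strbp, Gm4258 and Gm15704 held CCAAT, the window of Strbp held the E box, and those of Pitpnm2, Rab7 and Klhl2 held the ETS core. A match is a description of letters and not of a bound site.

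Members at RefSeq starts were centred downstream of them in most cases, as early promoter peaks are of theirs. The midpoint was a median of 173 bp downstream of the start, with quartiles of 16.5 and 372 bp, and stood downstream for 76 of 101 members, 75.2% (65.7 to 83.3). Early promoter peaks were centred a median of 212 bp downstream, with quartiles of 72 and 364.5 bp, and 90.2% (89.5 to 90.8) contained their start. Of the 101 starts, 76 were protein-coding and 25 long non-coding. The gene was named elsewhere in the table for 22 of the 76 protein-coding cases, 28.9% (19.1 to 40.5), which leaves cases such as Pitpnm2 and Rab7 whose gene the table does not name at all. Where the gene was named elsewhere, the named start lay a median of 27152 bp from the start at the member, with a range of 9877 to 131855 bp. That median is over 21 genes, with Srpk2, which had 2 members, counted once.

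**Figure D2:**
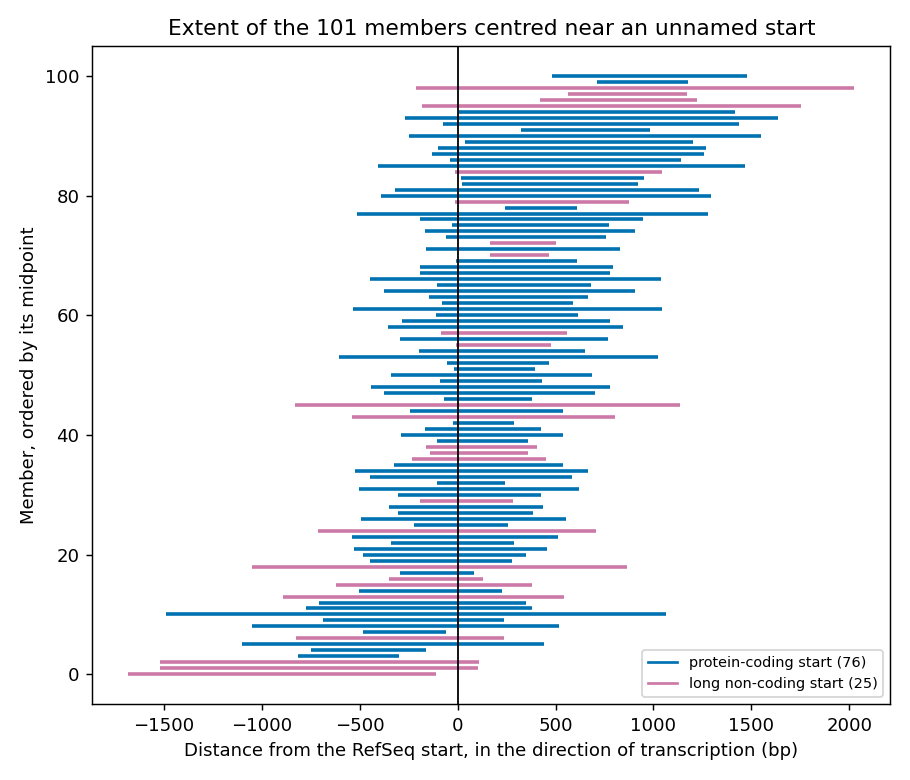
Extent of each of the 101 members centred within 1 kb of a RefSeq start, in bp from that start along the direction of transcription, ordered by midpoint and coloured by protein-coding (76) or long non-coding (25) start. Most bars cross the line at 0, as 85 of 101 contain the start, and 76 of 101 are centred to its right.

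Genes of chromatin regulation were among those with a member at an unnamed start, and the following were picked after their values were seen. Chd8, an ATP-dependent chromatin remodeller, had member 2473, 1202 bp wide (chr14:52256916-52258118) and centred 243 bp downstream of a start that lies 20188 bp from the start named in the table. Kansl1, a scaffold of an acetyltransferase complex, had member 4604 centred 351.5 bp downstream of a start 27152 bp from the named one, which has a promoter peak of its own at position 2517. Cic, a transcriptional repressor, had member 4668 centred 138 bp upstream of a start 14480 bp from the named one, whose promoter peak stands at 5182. Gatad2b, a subunit of the NuRD deacetylase complex, had member 7610 (chr3:90293638-90294365) and is named nowhere in the table. Pcgf5, a Polycomb group subunit, had members 4630 and 7539 at separate starts, with a gap of 59680 bp between them and no other peak nearer to either, and is also not named. Each of these genes thus had a peak at a start that the table leaves out, with or without another peak at a start that it names.

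Other genes with a member at an unnamed start have cardiac, signalling or metabolic roles and were picked in the same way. Srebf1, a transcription factor of sterol and fatty acid synthesis, had member 7878 over a start 10133 bp from the named one, and the named start has a promoter peak at position 592. Ece1, the enzyme that activates endothelin, had member 8207 over a start 51321 bp from the named one, with a promoter peak there at 8171. Prickle1, a planar cell polarity protein, had member 6865, which was 1795 bp wide and contained a start 76371 bp from the named one. Sorbs2, a cytoskeletal adaptor abundant in heart muscle, had member 7743 (chr8:45627427-45628289) centred 107 bp downstream of a start with 7 CGs. Eif2ak1, the heme-regulated translation kinase, had member 2423 centred 11.5 bp upstream of its start.

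A further 28 members were not near a start of the promoter windows and were within 1 kb of the 5′ end of a gene span in the RefSeq gene table. The widest member of all, 3889 bp at position 6076 (chr3:148987192-148991081), was centred 40.5 bp upstream of the 5′ end of Adgrl2, a latrophilin adhesion receptor that the peak table names as Lphn2 at a start 34501.5 bp away. Foxp1, a forkhead factor with a role in heart development, had member 4909 of 2307 bp (chr6:99521343-99523650), centred 249.5 bp inside its 5′ end. Bach2, a bZIP repressor, had member 3008 of 2037 bp centred 933.5 bp inside its 5′ end. Tet3, an enzyme that oxidises methylcytosine, had member 708 of 1633 bp centred 767.5 bp inside. Ncoa6, a nuclear receptor coactivator, had member 682, which was centred 527.5 bp inside and did not contain the 5′ end. Lin28b, an RNA-binding blocker of let-7 maturation, had member 7547 centred 80.5 bp inside. Lin28b was picked after its values were seen.

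Counting both kinds, 129 of the 263 members lay at a known start or 5′ end that the table does not name, 49.0% (42.9 to 55.3). Of the later gene-distant peaks, 270 of 1257 did, 21.5% (19.2 to 23.9). Of the other 134 members, 5 lay within 1 kb of a gene's 3′ end. Another 16 lay within 1 kb of an end of a gene whose strand is not known here. For 113, no start and no gene end was found within 1 kb. Any of the 16 may lie at a 5′ end, and so may 134 of the later gene-distant peaks. The 4 members and 57 later gene-distant peaks on the chromosome without windows were searched for gene ends only. Both shares are thus lower limits. Of the 134 members, 80 were centred in a protein-coding gene, 50 of them in a gene that the table names elsewhere, 12 in a gene of another kind and 42 between genes.

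By gene span alone, 212 members were centred inside an annotated gene, 80.6% (75.3 to 85.2), of which 187 were in a protein-coding gene. The share was 70.2% (67.6 to 72.8) among later gene-distant peaks. The transcripts listed in the peak table placed 53 members in an intron, 6 in a coding exon and 204 in no listed feature. Members centred in a coding exon included 4836 in Dab2ip, a Ras GTPase-activating protein, 5239 in Capn2, a calpain protease subunit, 7131 in Mtss1, a membrane-bending actin regulator, and 8131 in Zfp697, a zinc finger gene. These 4 lay between 26998 and 45483.5 bp downstream of the start named in the table.

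The members had a median width of 826 bp, with quartiles of 493 and 1223.5 bp and a range of 263 to 3889 bp. Early promoter peaks had a median of 1023 bp and later gene-distant peaks one of 325 bp. Widths under 500 bp were 25.5% (20.3 to 31.2) of members, 5.56% (5.06 to 6.10) of early promoter peaks and 76.5% (74.1 to 78.8) of later gene-distant peaks. Widths of 2000 bp or more were 11 members, 4.18% (2.11 to 7.36), against 6.59% (6.05 to 7.17) of early promoter peaks. Members at a RefSeq start were wider, with a median of 985 bp, than the 158 others with windows, with a median of 750 bp, and 15.8% (9.34 to 24.4) against 31.6% (24.5 to 39.5) were under 500 bp. Width falls along the order in this table, and members at starts stood somewhat earlier, at a median position of 5559 against 6125.5. Within blocks of the order, members at a start had medians of 1305.5 bp at positions 2001 to 4000, 934 bp at 4001 to 6000 and 805 bp at 6001 to 8000, against 1062, 878 and 712 bp for the others and 1112, 972 and 830 bp for promoter peaks. At positions 1 to 2000 the medians were 1037.5 bp at a start (n = 10) and 970 bp for the others (n = 17). At 8001 to 8348 they were 779 bp (n = 9) and 564 bp (n = 17). The widths of the 2 groups overlapped broadly, as at 6001 to 8000 with 310 to 2238 bp at a start and 263 to 3889 bp for the others. Such ranges do not give the precision of a median.

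**Figure D3:**
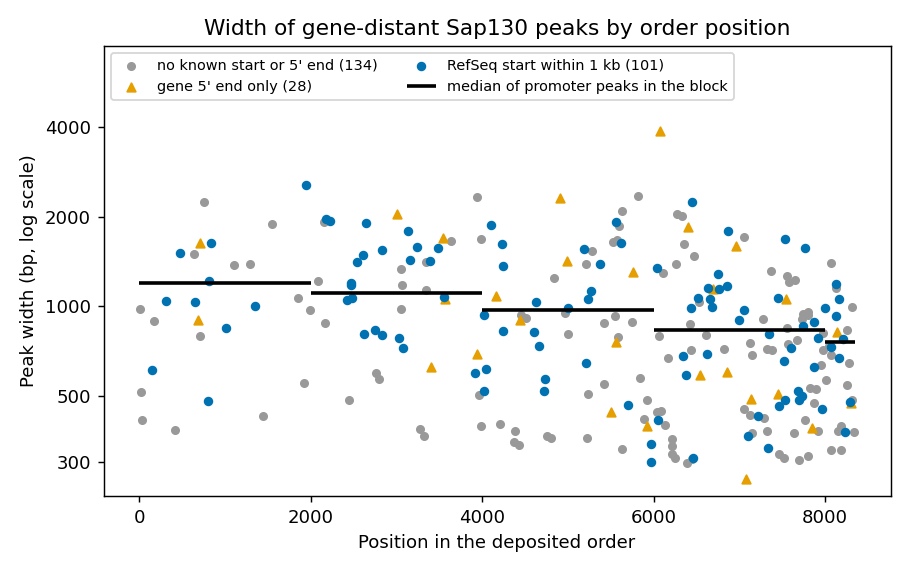
Width (bp, log scale) of each member against its position in the deposited order, coloured by whether it lay within 1 kb of a RefSeq start (101), only of a known gene 5′ end (28) or of no known start or 5′ end (134, of which 16 lie near a gene end of unknown strand), with black lines for the median of promoter peaks in each block of positions. Members become denser towards position 8348, the narrow ones below 500 bp are mostly of the third kind, and the widest, 3889 bp, is at the 5′ end of Adgrl2.

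The 10 widest members were between 2037 and 3889 bp wide. After the peak of Adgrl2 came member 1949 of 2553 bp (chr3:51339582-51342135), which contains the start of Elf2, an ETS family transcription factor. Member 5822 of 2347 bp (chr15:85669984-85672331) lay 64406.5 bp upstream of the named start of Ppara, a nuclear receptor of fatty acid oxidation, in no annotated gene. Member 3939 of 2329 bp was centred inside Tln2, a talin that links integrins to actin, and covered an end of the gene 724.5 bp away. Foxp1 followed. Member 759 of 2247 bp (chr5:33819653-33821900) lay inside Nsd2, a histone H3 lysine methyltransferase, and was by far the earliest of the 10. Member 6454 of 2238 bp lay inside Bicra, a subunit of a BAF chromatin remodelling complex, at the start of the non-coding gene Gm32059. The last of them were 5629 in an intron of Dleu2, 2096 bp wide, 6279 in Svil, which encodes the actin-binding protein supervillin, 2040 bp wide, and that of Bach2. Member 6279 covered an end of Svil 841 bp from its midpoint. The strands of Tln2 and Svil are not known here, so either end may be a 5′ end.

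The 20 earliest members, at positions 5 to 1290, included the 6 protein-coding starts printed above. Member 5 (chr5:142367115-142368093), of 978 bp, lay in no protein-coding gene, 33893 bp upstream of the named start of Foxk1, a forkhead factor known to bind Sin3, and covered the 3′ end of the non-coding gene Gm31068. Members 17 and 33 lay in introns of Phf21b, a PHD finger gene, and Erich1, and were 516 and 414 bp wide. Member 148 lay at the start region of the non-coding Gm31585, and member 170 lay inside Camta1, a calmodulin-binding transcription activator, 256916 bp from its named start. Member 411, of 385 bp, lay between genes 93707.5 bp upstream of the named start of Nek6, a mitotic kinase. Member 637 of 1494 bp lay in an intron of Mical3, and member 712 lay inside Acaca, the acetyl-CoA carboxylase of fatty acid synthesis. Members 1108 and 1290, of 1378 and 1386 bp, lay inside Gm52681 and Garre1, with Cdc42 and Lsm14a as the nearest named genes. Member 1290 was centred 341 bp from an end of Garre1, whose strand is not known here. Member 796 lay over the start of Gm12843 inside an intron of Rnf220, a ubiquitin ligase. The earliest members thus mixed unnamed starts with narrow intronic peaks, and 4 of the 20, at 17, 33, 411 and 796, were between 385 and 516 bp wide.

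The distance from a member's midpoint to the nearest start that the table names had a median of 50455.5 bp, with quartiles of 26257.5 and 99069.5 bp and a longest of 1237113.5 bp. By the rule none was under 10 kb. The nearest named start was 10 to 20 kb away for 47 members, 20 to 50 kb for 82, 50 to 100 kb for 69 and over 100 kb for 65. The median among later gene-distant peaks was 45219.5 bp, and 24.0% of them against 24.7% (19.6 to 30.4) of the members were over 100 kb away. Members lay downstream of the nearest named start in 142 cases, 54.0% (47.8 to 60.1). That nearest gene had a promoter peak in 253 cases, 96.2% (93.1 to 98.2), against 93.5% (92.0 to 94.8) for later gene-distant peaks. The search covered only starts that the table names for a peak. Of the 15171 named peaks, 7694 were early promoter peaks and 5066 were later promoter peaks. A high share thus follows in large part from the list of starts, and the share over all named genes was not computed.

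The nearest named genes numbered 243, of which 224 had 1 member, 18 had 2 and 1 had 3. Among those with 2 were Arid1a, a BAF complex subunit, with members 23838 and 60367.5 bp away and a promoter peak at 4455, and Eef1a1, the translation elongation factor, with members 39145 and 46068 bp away. Genes that held more than 1 member within their span numbered at least 14, among them the kinase genes Pik3ca, Srpk2 and Fer, Camta1, Rere and Hdac4. The count of 14 leaves out members that lay in overlapping genes. Foxn3, which held members 4102 and 4236, is not in it because member 4102 also lay in Gm51999. The nearest named gene often differed from the gene that held the member. The members at the Hdac4 start had Ndufa10 as their nearest named gene, 293900 and 292860.5 bp away, and those at the Pik3ca start had 4930429B21Rik.

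Members fell into gaps that were either very short or long. The gap between the edges of a member and the nearest other peak had a median of 21614 bp, with quartiles of 481 and 66515 bp, a shortest of 50 bp and a longest of 1235914 bp. Another peak lay within 10 kb of 91 members, 34.6% (28.9 to 40.7), against 37.3% (34.6 to 40.1) for later gene-distant peaks. The naming rule itself limits named peaks at that distance, and 85 of the 91 had another gene-distant peak as their nearest neighbour. Another peak lay within 500 bp of 66 members, 25.1%. Of these partners 49 were later gene-distant peaks, 16 were members and 1 was a named peak. A neighbour within 500 bp was seen for 35 of the 101 members at a RefSeq start, 34.7% (25.5 to 44.8), and for 31 of the 158 others, 19.6% (13.7 to 26.7). Those intervals overlap slightly, which does not by itself tell whether the shares differ, and no test over samples exists for the difference. For 39 members, 14.8% (10.8 to 19.7), no other peak lay within 100 kb.

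**Figure D4:**
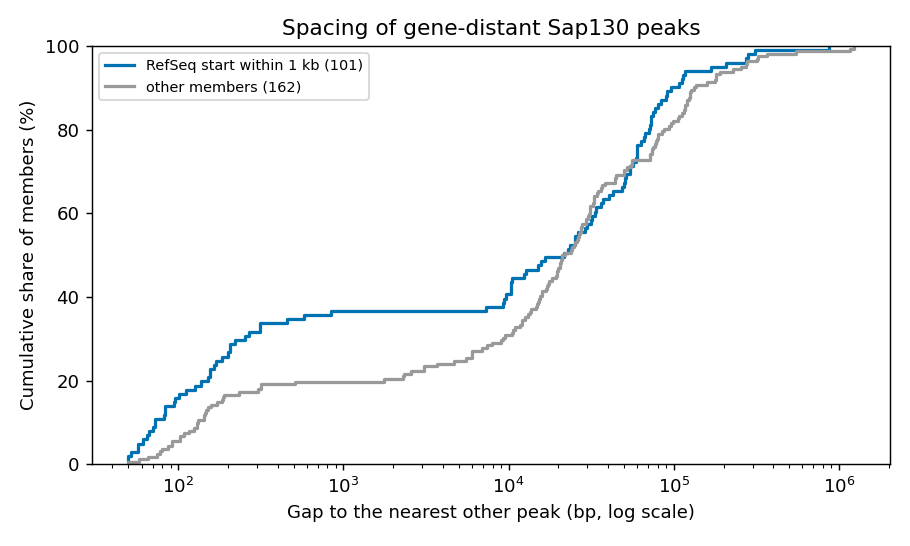
Cumulative share of members (%) against the gap to the nearest other peak (bp, log scale), for members with a RefSeq start within 1 kb (101) and all others (162). Both lines rise early below 500 bp, by more for members at a start (34.7%), rise little up to several kb, and climb again from about 10 kb. The cause of the flat stretch was not tested.

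Joined at gaps of up to 10 kb, 23 members formed 11 clusters, 1 of 3 members and 10 of 2. The pairs at Hdac4, Pik3ca, Srpk2, Fer and Pou6f1 had gaps of 313, 50, 57, 156 and 83 bp. The Hdac4 pair (chr1:92179391-92181157), at positions 4027 and 7687, flanked the start of this class IIa deacetylase gene, which lay in the gap between them and in neither peak. The Pik3ca pair (chr3:32396715-32398544) lay at the start of the catalytic subunit of phosphoinositide 3-kinase, with the start inside member 3034. The pairs near Chst14, Bcl9l and Eef1a1 were looser, with gaps of 3054, 2343 and 6017 bp, and those near Sptbn1 and Zfat had gaps of 144 and 102 bp. In 5 of the 11 clusters, those at Hdac4, Pik3ca, Srpk2, Fer and Pou6f1, both members were centred within 1 kb of a RefSeq start of the same gene.

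For the 16 members at a RefSeq start that did not contain it, the start lay in the gap to the neighbouring peak in 6 cases and within the neighbouring peak in 4. The cases in a gap were those of Trak1, Rap1gap2, Gm26901, Plekhg5 and both of Hdac4. The cases within a neighbour were those of Fer, Pik3ca, Tbc1d1 and Pou6f1. The start lay outside both in the other 6, among them Zfyve9 and the non-coding Gm31585.

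Across chromosomes the members followed the early peaks in most cases, with chromosome 4 highest and chromosome 10 low. Chromosome 4 held 36 members, 13.7% (9.78 to 18.4), against 7.12% of all peaks at positions 1 to 8348 and 5.73% of later gene-distant peaks. Of those 36, 8 lay at a RefSeq start. Chromosome 10 held 6 members, 2.28% (0.84 to 4.90), against 5.06% of early peaks. Chromosomes 13 and 19 held 4 and 6, and X held 2. In windows of 10 Mb, 139 windows held a member. The fullest were 30 to 40 Mb of chromosome 2 and 130 to 140 Mb of chromosome 4 with 8 members each, then 150 to 160 Mb of chromosome 4 with 7 and 40 to 50 Mb of chromosome 4 with 6. Members were 8.60%, 7.02%, 10.4% and 8.45% of the early peaks in those windows. Both were singled out after the values were seen, and 20 chromosomes were compared.

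**Figure D5:**
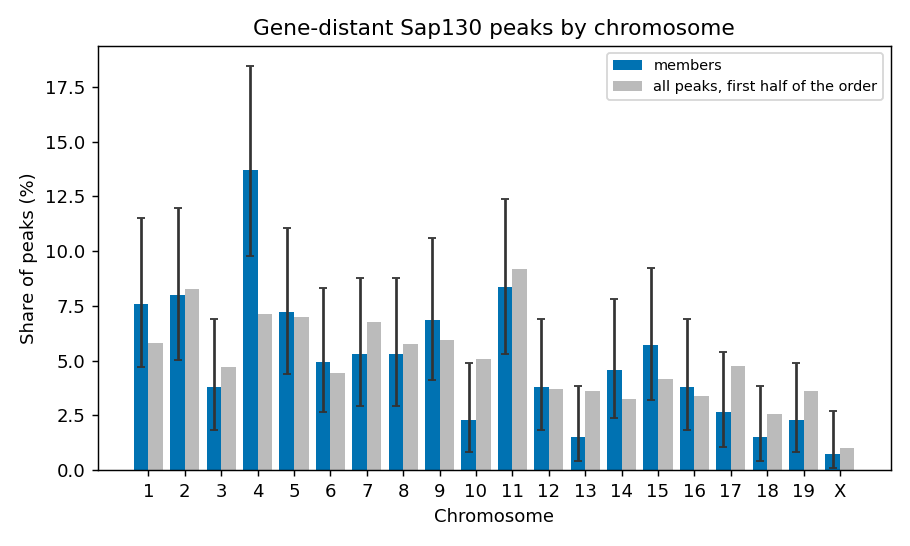
Share (%) of members and of all peaks at positions 1 to 8348 on each chromosome, with 95% exact intervals on the members. Chromosome 4 is the only one of the 20 whose interval, 9.78 to 18.4, lies wholly above the share of early peaks, 7.12, and only that of chromosome 10, 0.84 to 4.90, lies wholly below its share, 5.06.

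Gene lists chosen for the heart, for the Sin3 complex and for other cell types were read through the nearest named gene, and 10 members fell in any of 14 lists. The list of 42 immediate early and stress response genes, many of them switched on soon after a stimulus, had 5 members, 1.90% of members against 1.11% of later gene-distant peaks and 0.357% of named genes. They were Atf3 at position 5215, Fosb at 5424, Nr4a1 at 5920, Ier5 at 8289 and Fos at 8316. A count of 5 is too small to tell this share apart from that of later gene-distant peaks. For this and the other lists, the share of named genes counts genes and not peaks, so it is not a like measure. The member of Fos (chr12:85485797-85486789), 992 bp wide, lay 12392 bp downstream of its named start, and that of Fosb (chr7:19319846-19320396) lay 10076 bp upstream. The member of Nr4a1, an orphan nuclear receptor, was centred 470.5 bp inside the 5′ end of the gene span and 12473.5 bp upstream of the named start. Those of Atf3 and Ier5 lay at the starts of the non-coding genes D730003I15Rik and Gm9530, 41358.5 bp upstream and 16417.5 bp downstream.

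Cardiac transcription factors were nearest to 2 members, 0.76% of members against 2.71% of later gene-distant peaks and 0.452% of named genes. These were Zfhx3 at 5569, a zinc finger homeobox factor tied to atrial rhythm, with a peak of 1676 bp 10218 bp upstream, and Nfia at 6426, with a peak 19826 bp upstream. Foxp1 of this list held a member although its nearest named gene was Eif4e3. The Sin3 and deacetylase list had 2 members, 0.76% against 0.557% of later gene-distant peaks and 0.304% of named genes, near Foxk1 and Hdac5, the latter at 4965 in the gene and 11440 bp downstream of its named start, and the members at the Hdac4 start add to these by the gene that holds them. Cell cycle genes had 1, near Ccne1, which encodes cyclin E, at 2089, a share of 0.38% close to the 0.318% of later gene-distant peaks and 0.313% of named genes. The contraction, heart signalling, endothelial, matrix, cytoskeleton and ribosome lists had 0 members, and so did the neuronal, liver, skeletal muscle and blood lists. A member can fall only to a gene that the peak table names. That table names 8 of 24 neuronal, 1 of 15 liver, 2 of 17 skeletal muscle and 4 of 15 blood genes. The 0 counts of these 4 lists were thus close to fixed in advance and say little about other tissues. A member did lie inside Rbfox3, a neuronal splicing regulator, 108039.5 bp from the named start of Engase. A list with 0 of 263 members allows a share of up to 1.39% by the exact interval. Later gene-distant peaks had 13 for contraction, 13 for signalling, 8 for endothelium and 11 for cytoskeleton, and a count this small cannot tell such shares apart from those of the members.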

How the data were processed

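A single peak table was deposited by the authors, with positions in mm10 (GRCm38) and an annotation per peak. Its values are of no other unit, so no score or signal per peak was used, and the strand entry and gene columns served as labels only. Per the submitters' processing notes, Bowtie 1.1.2 and MACS2 2.1.0.20140616 were used. No source used here states thresholds, duplicate handling, region filters or the annotation tool, and each could change the number, width and splitting of peaks. Peak positions are printed as deposited and are uncertain by 1 bp, since their base is not stated.

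Here, peaks with no gene name at positions 1 to 8348 were taken as members. The members and lists were chosen with earlier results of these data known. Midpoints were set against named transcript starts, RefSeq gene spans (either end, since that table has no strand) and RefSeq promoter windows of assembly GRCm38.p6. For 5′ and 3′ ends, strand was taken from promoter windows of the same gene. Where a gene had none, it was taken from a transcript of that gene named in the peak table. Of 15171 named peaks, 15146 matched the gene table. A promoter peak is centred within 1 kb of its named start. How RefSeq starts were picked for the window table is not recorded. Sequences are RefSeq, GRCm38.p6. Peak sequence was not used here. Edge gaps and clusters were tested on simulated intervals with known answers. Named examples are the 20 earliest and 10 widest members, clusters and genes with 3 members, listed genes and those at the rule's edges, and any other was picked after its values were seen. Some members that this rule names are not reported here. No test was run, because 1 library of each kind gives no replicates. Python 3.11.15, NumPy 2.4.6, pandas 2.3.3, SciPy 1.17.1 and matplotlib 3.10.9 were used.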

Additional observations from a re-analysis of the deposited data

How the results depend on the processing

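No paired analysis was possible because the study holds 1 ChIP library and 1 input library and the peak list comes from no test over samples. The settings on RefSeq starts and the added comparisons with positions 1 to 4174 and all gene-distant peaks for them were chosen after seeing the data.

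The median width of 826 bp was 1064 bp for the members at positions 1 to 4174, 365 bp over all gene-distant nuclear peaks and 877 bp after peaks within 500 bp were merged. The share inside a gene, 80.6%, was 71.1% with protein-coding genes only, 89.6% at positions 1 to 4174, 72% over all gene-distant peaks and 85.2% by any base of the peak. The share with another peak within 10 kb, 34.6%, was 47.9% at 20 kb, 29.3% at 5 kb and 11.0% when only peaks at positions 1 to 8348 were counted. The share within 1 kb of either end of a gene, 44.1%, was 30.4% at 500 bp and 51.3% at 3 kb. The share centred within 1 kb of a RefSeq start, 39.0%, was 30.9% at 500 bp, 29.3% with protein-coding starts only, 48.0% at positions 1 to 4174, 21.8% over all gene-distant peaks and 40.9% at 3 kb. Members in clusters numbered 21 to 27 at gaps of 5 to 50 kb. The median distance to a named start stayed between 50207 and 51876 bp. Members nearest to a listed gene rose from 10 to 15 when the nearest protein-coding gene by either end was used. Narrower windows and restricted gene sets give lower shares by construction, and for the rest the cause was not tested. The depth of the libraries is unknown, so no limit from depth could be set.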
